A study of Mus musculus with 17 samples.

Results

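The tumor necrosis factor (TNF) superfamily was followed here through 10 genes, 5 ligands (Tnf, Ltb, Tnfsf13b, Tnfsf10 and Fasl) and 5 receptors (Tnfrsf1a, Tnfrsf1b, Fas, Cd40 and Tnfrsf12a), chosen by name out of 18194 genes. On the arrays they were represented by 19 of the 34958 probe sets that are annotated to a single gene. For each gene the probe set with the highest mean signal over all arrays was taken, and the other 9 are described separately. TNF superfamily ligands are made mostly as trimers on the cell surface, and some are cut loose as soluble cytokines. Their receptors either carry a death domain, through which caspases can be activated, or bind TRAF adaptor proteins directly, and both routes can lead to NF-κB. In experimental autoimmune encephalomyelitis (EAE), a mouse model of multiple sclerosis, infiltrating leukocytes, microglia and endothelial cells are known to use these signals.

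RNA was measured in thoracic spinal cord of 17 female C57BL/6 mice, given by the labels as 8 weeks old, with 1 Affymetrix Mouse Genome array per mouse. The 6 naïve mice received no treatment. The other 11 mice had targeted EAE, in which an animal immunized with a myelin oligodendrocyte glycoprotein peptide in complete Freund's adjuvant, together with pertussis toxin, receives TNF-α and IFN-γ protein into the thoracic cord after a dorsal laminectomy. Of these, 5 received the isotype control antibody palivizumab and 6 the humanized anti-RGMa antibody, which binds repulsive guidance molecule A, at 10 mg/kg intravenously, first at 9 days post-induction (DPI). All EAE cords were taken at 14 DPI as a segment of 4.5 mm around the injection site. Because the cytokines were injected weeks after immunization, the age given by the labels may not be that at sampling. The injected cytokines are proteins and are not themselves measured on an RNA array. Because naïve mice had neither immunization, surgery, cytokines nor antibody, these cannot be told apart in the comparisons with naïve cord. The same holds for any difference in age at sampling. Replicate numbers were not taken to pair mice of different groups.

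Values are log2 of the signal on each array, and a difference of 1 is a 2-fold change. Differences between groups were tested with limma in 1 fit over the 3 groups and all 18194 genes. Against naïve cord a gene was called at a Benjamini-Hochberg adjusted p under 0.05. Between the antibodies the threshold of the study was used, a fold change over 1.5 at an unadjusted p under 0.05, and the adjusted p stands beside it. Dim signals carry background, so folds were also computed after adding 32 to every signal. In cords of mixed cells, more cells of a type and more RNA per cell cannot be told apart.

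Leukocyte marker genes were much higher in both EAE groups. Averaged over 13 macrophage and monocyte markers, the log2 signal was 6.90 to 7.71 in naïve, 11.04 to 12.01 in isotype control and 10.71 to 11.87 in anti-RGMa arrays. For 8 T cell markers the ranges were 3.57 to 4.45, 7.45 to 8.49 and 7.39 to 8.48, and for 5 B cell markers 4.55 to 5.62, 7.46 to 8.72 and 6.99 to 8.01. Cord markers were present throughout, with 8 neuron markers at 13.00 to 13.08, 11.51 to 12.25 and 11.73 to 12.65 and 6 oligodendrocyte markers between 13.23 and 13.69 in all arrays. Markers of skeletal muscle, a tissue next to the cord, reached 9.67, 13.26 and 9.70 in isotype control replicates 3, 4 and 5, against at most 8.63 in any other array. The part of these cells in the differences below was not tested, except where values without the 3 arrays are given.

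Promoter sequences were examined for the letters that transcription factors of the injected cytokines' pathways bind. RefSeq promoters of assembly GRCm38.p6, running from 250 bases before to 50 bases after the gene's start, were matched for 9 of the 10 members, with 2 for Tnfsf13b and none for Cd40. The following motifs were searched on both strands, the NF-κB consensus, the interferon-stimulated response element (GAAANNGAAA) and the gamma-activated site (TTCNNNGAA). The gamma-activated site was found in the promoters of Ltb, Tnfrsf1a, Tnfrsf1b and Fas, against 8.3% of 32851 promoters. The NF-κB consensus was found in Ltb, against 8.46% of all promoters. The interferon element was found in Tnfrsf1b and in the second promoter of Tnfsf13b, against 3.44%. Ltb (chr17:35194507-35196305) and Tnf (chr17:35199367-35202007) lie close together on chromosome 17 but differed here, since the window before Tnf held none of the motifs. A match is a description of the letters and not a site in use. The 4 promoters with a gamma-activated site are given because they hold most of the matches and include the ligand and the receptor with the largest rises. Capitals mark the matches. They lie at chr17:35194257-35194556 on the plus strand (Ltb), chr6:125349473-125349772 on the plus strand (Tnfrsf1a), chr4:145246821-145247120 on the minus strand (Tnfrsf1b) and chr19:34290409-34290708 on the plus strand (Fas).
Ltb: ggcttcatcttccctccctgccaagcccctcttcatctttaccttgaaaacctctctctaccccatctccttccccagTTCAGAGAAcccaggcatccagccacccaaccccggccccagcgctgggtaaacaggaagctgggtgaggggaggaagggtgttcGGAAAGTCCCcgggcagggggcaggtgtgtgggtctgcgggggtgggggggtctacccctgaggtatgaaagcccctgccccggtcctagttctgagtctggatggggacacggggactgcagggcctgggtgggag
Tnfrsf1a: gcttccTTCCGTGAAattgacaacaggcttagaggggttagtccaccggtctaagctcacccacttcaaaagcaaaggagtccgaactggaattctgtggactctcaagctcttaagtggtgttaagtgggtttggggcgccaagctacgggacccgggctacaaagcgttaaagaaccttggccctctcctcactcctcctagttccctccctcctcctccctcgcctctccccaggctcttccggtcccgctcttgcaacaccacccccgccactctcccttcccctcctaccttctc
Tnfrsf1b: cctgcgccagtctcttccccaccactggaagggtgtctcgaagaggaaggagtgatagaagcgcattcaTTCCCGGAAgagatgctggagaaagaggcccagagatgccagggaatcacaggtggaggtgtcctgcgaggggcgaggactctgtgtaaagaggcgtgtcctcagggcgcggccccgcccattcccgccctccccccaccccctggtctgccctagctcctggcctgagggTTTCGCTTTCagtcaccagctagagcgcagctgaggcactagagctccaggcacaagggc
Fas: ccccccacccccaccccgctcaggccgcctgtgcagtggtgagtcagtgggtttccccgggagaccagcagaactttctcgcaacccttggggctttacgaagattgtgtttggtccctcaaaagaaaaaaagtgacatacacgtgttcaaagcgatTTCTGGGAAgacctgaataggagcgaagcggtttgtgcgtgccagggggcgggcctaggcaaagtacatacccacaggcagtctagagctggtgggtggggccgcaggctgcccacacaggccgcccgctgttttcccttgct
In Ltb the first match is the gamma-activated site, 172 bases before the start, and the second the NF-κB consensus, 87 bases before it. In Tnfrsf1b the gamma-activated site begins 181 bases before the start and the interferon element, read on the other strand, 10 bases before it.

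All 10 members rose in EAE. In the isotype control group 10 of 10 were called higher than in naïve cord, where 24.6% of all genes were, and 0 were called lower, against 27.2% of all genes. In the anti-RGMa group 10 of 10 were again called higher, against 20.3% of all genes, and 0 lower, against 21.6%. The median log2 fold change of the members was 2.30 in isotype control and 2.03 in anti-RGMa, compared with -0.04 and -0.03 over all genes. Receptors had medians of 2.56 and 2.16 and ligands of 2.05 and 1.90. The comparisons share the naïve arrays. Every isotype control array lay above every naïve array for 8 of the 10 members, as for 18.3% of all genes, and every anti-RGMa array did for 9, as for 13.9%. The counts of 10 and 10 did not change when any single array was left out. Without isotype control replicates 3, 4 and 5 together, 9 of 10 were called in isotype control, where Tnfrsf12a was lost, and 10 in anti-RGMa. The ratio of 3' to 5' signal of Gapdh, a measure of RNA integrity on these arrays, was 0.607 to 0.650 in naïve replicates 1 to 5 and 0.807 in naïve replicate 6, against 0.694 to 0.922 in isotype control and 0.748 to 0.860 in anti-RGMa arrays. For actin the ratio was 1.40 to 1.83, 1.42 to 1.82 and 1.53 to 1.71. The part of these ratios in the members' rise was not tested.

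**Figure D1:**
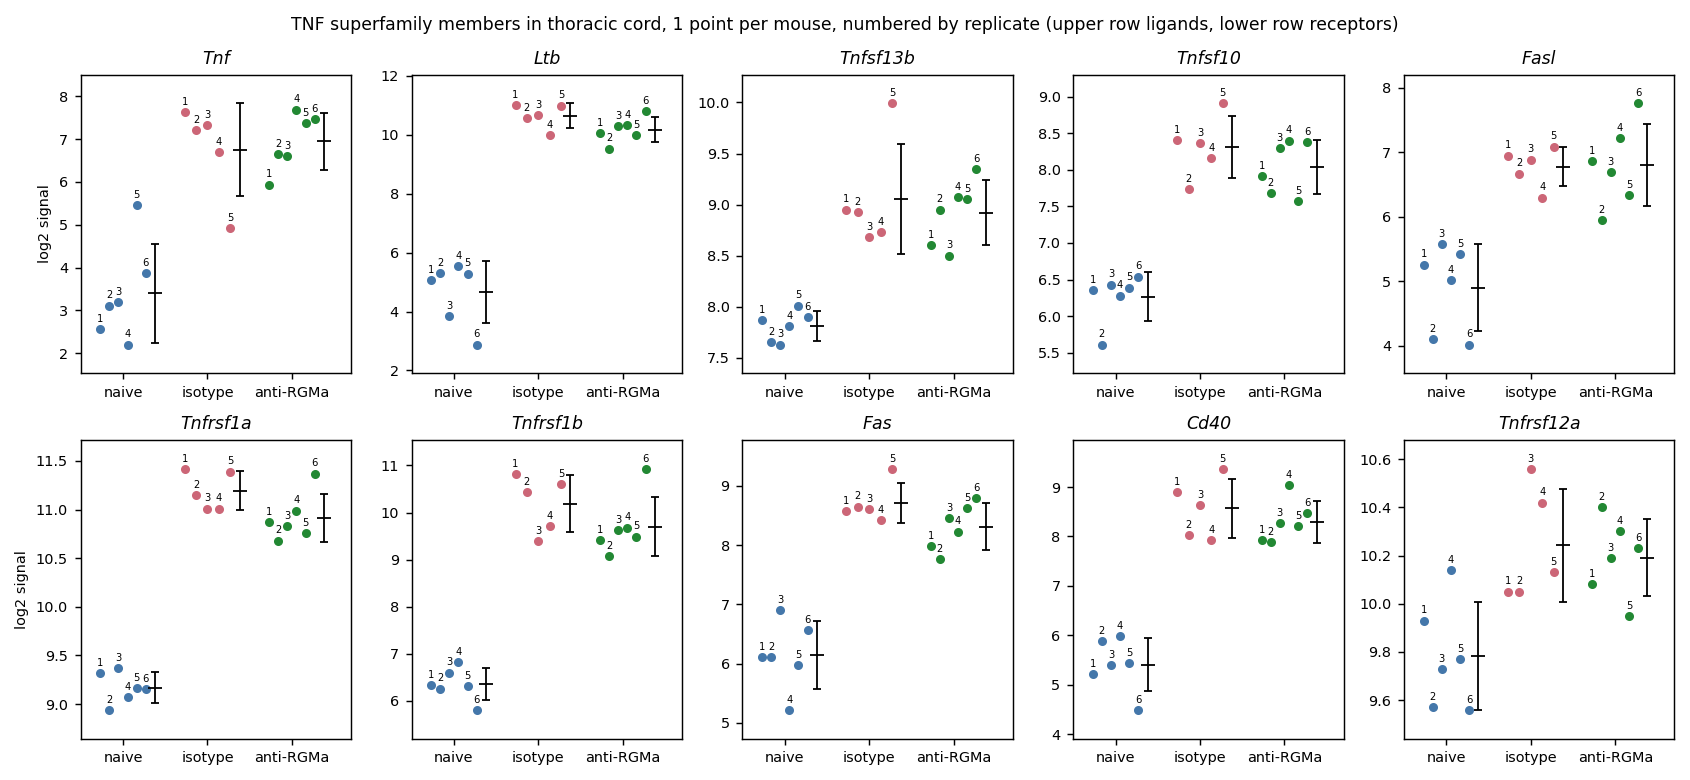
Log2 signal of the 10 members in each mouse, with ligands in the upper row and receptors in the lower row. Points are mice, numbered by replicate, and the black bars are the mean ± SD of a group (6 naïve, 5 isotype control, 6 anti-RGMa). EAE and naïve mice do not overlap except for Tnf in isotype control replicate 5 (4.93, against a naïve maximum of 5.46) and for Tnfrsf12a.

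Ltb encodes lymphotoxin β, which forms a membrane complex with lymphotoxin α and is made by lymphocytes. Its log2 signal in naïve cord was 2.88 to 5.53 with a median of 5.18. The 5 isotype control mice had 11.02, 10.57, 10.68, 10.00 and 10.99, and the anti-RGMa mice ranged from 9.53 to 10.81 with a median of 10.17. The lowest EAE mouse was thus far above the highest naïve mouse. The rise was the largest of the 10 members, 6.00 ± 0.41 (SE) in isotype control (63.9-fold, limma adjusted p = 1.97e-08) and 5.51 in anti-RGMa (45.6-fold, adjusted p = 3.53e-08). Naïve signals were dim, and with 32 added the folds were 27.3 and 19.6.

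Tnf encodes TNF-α itself, the ligand of the receptors encoded by Tnfrsf1a and Tnfrsf1b. In naïve cord its log2 signal spread from 2.20 to 5.46 with a median of 3.16. Isotype control mice gave 7.63, 7.22, 7.32, 6.69 and 4.93. Anti-RGMa mice gave 5.94 to 7.69 with a median of 7.01. The isotype control mouse at 4.93 lay below the highest naïve mouse, and no anti-RGMa mouse did. The log2 fold change was 3.36 ± 0.57 (10.2-fold, adjusted p = 0.000139) in isotype control and 3.55 (11.7-fold, adjusted p = 0.000106) in anti-RGMa. These folds depended on the dim naïve signals, of which the median was 8.93 before log2, and adding 32 brought them to 3.26 and 3.52. Tnf varied most among the EAE mice, with 6.79-fold between the lowest and the highest of the 11.

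Tnfsf10 encodes TRAIL, a ligand of death receptors. Naïve mice had log2 signals of 5.61 to 6.54 (median 6.37), of which replicate 2 was the lowest. The signals of the isotype control mice were 8.41, 7.74, 8.37, 8.16 and 8.91, and those of anti-RGMa mice 7.57 to 8.40 (median 8.11). Groups of EAE mice overlapped with each other and not with naïve mice. Tnfsf10 rose by 2.05 ± 0.22 on the log2 scale in isotype control (4.13-fold, adjusted p = 1.86e-06) and by 1.77 in anti-RGMa (3.41-fold, adjusted p = 7.58e-06).

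Fasl encodes Fas ligand, carried by cytotoxic lymphocytes. Its signal was 4.02 to 5.58 (median 5.14) in naïve mice, and 6.95, 6.67, 6.89, 6.30 and 7.09 in the isotype control mice. It ran from 5.95 to 7.76 (median 6.78) in anti-RGMa mice, which spread on both sides of the isotype control mice. The log2 fold change against naïve was 1.88 ± 0.34 (3.68-fold, adjusted p = 0.000219) and 1.90 (3.74-fold, adjusted p = 0.000255). With 32 added the folds were 2.25 and 2.30.

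Tnfsf13b encodes BAFF, a survival factor of B cells. Naïve mice were close together at 7.63 to 8.01 (median 7.84). Isotype control mice had 8.95, 8.93, 8.68, 8.73 and 9.99, the last well above the others, and anti-RGMa mice 8.50 to 9.35 (median 9.00). All EAE mice were above all naïve mice. The rise was 1.25 ± 0.21 in isotype control (2.37-fold, adjusted p = 0.000121) and 1.11 in anti-RGMa (2.16-fold, adjusted p = 0.000405), the smallest among the ligands. It held for this probe set only, as described with the other probe sets.

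Tnfrsf1b encodes the TNF receptor without a death domain. Its naïve log2 signals were 5.81 to 6.83 (median 6.33). In isotype control mice they were 10.81, 10.43, 9.40, 9.72 and 10.60, and in anti-RGMa mice 9.08 to 10.93 (median 9.55). Replicate 6 held the anti-RGMa maximum, and the next anti-RGMa mouse was at 9.68. This was the largest rise of the receptors, 3.83 ± 0.31 (14.3-fold, adjusted p = 1.20e-07) in isotype control and 3.34 (10.1-fold, adjusted p = 4.04e-07) in anti-RGMa.

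Tnfrsf1a encodes the TNF receptor with a death domain. It was measured at 8.94 to 9.37 (median 9.15) in naïve mice and at 11.42, 11.15, 11.01, 11.01 and 11.39 in isotype control mice. Anti-RGMa mice had 10.68 to 11.37 (median 10.85). Mice of a group were close together, with SDs of 0.16, 0.20 and 0.24. The rise of 2.03 ± 0.12 (4.07-fold) in isotype control had the smallest adjusted p of the members, 5.58e-09, and that in anti-RGMa was 1.75 (3.36-fold, adjusted p = 1.90e-08).

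Cd40 encodes the costimulatory receptor of antigen-presenting cells. The naïve range was 4.49 to 5.98 (median 5.42). The isotype control mice were at 8.89, 8.03, 8.63, 7.93 and 9.37, and the anti-RGMa mice between 7.89 and 9.04 (median 8.24). EAE and naïve mice were well apart. The log2 fold change was 3.17 ± 0.30 (8.99-fold, adjusted p = 5.76e-07) in isotype control and 2.90 (7.47-fold, adjusted p = 1.23e-06) in anti-RGMa.

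Fas encodes the death receptor of Fas ligand. Naïve mice had log2 signals of 5.22 to 6.91 (median 6.11). Isotype control mice had 8.58, 8.65, 8.61, 8.42 and 9.29, and anti-RGMa mice 7.77 to 8.80 (median 8.34). Replicate 5 was the highest isotype control mouse, as it was for Tnfsf13b, Tnfsf10 and Cd40. Fas rose by 2.56 ± 0.26 (5.91-fold, adjusted p = 1.28e-06) in isotype control and by 2.16 (4.48-fold, adjusted p = 6.79e-06) in anti-RGMa.

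Tnfrsf12a encodes Fn14, the receptor of TWEAK, and it changed least. Its signal was 9.56 to 10.14 (median 9.75) in naïve mice. It was 10.05, 10.05, 10.56, 10.42 and 10.13 in isotype control mice and 9.95 to 10.40 (median 10.21) in anti-RGMa mice, so that both EAE groups overlapped with naïve mice. The difference was 0.46 ± 0.13 (1.38-fold, adjusted p = 0.00576) in isotype control and 0.41 (1.33-fold, adjusted p = 0.0118) in anti-RGMa. Isotype control replicates 3 and 4, the highest mice, were among the 3 with high muscle markers. Without replicates 3, 4 and 5 the difference between isotype control and naïve was 0.27 (adjusted p = 0.187), and with the muscle marker mean as a covariate it was 0.30 (adjusted p = 0.0562).

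**Figure D2:**
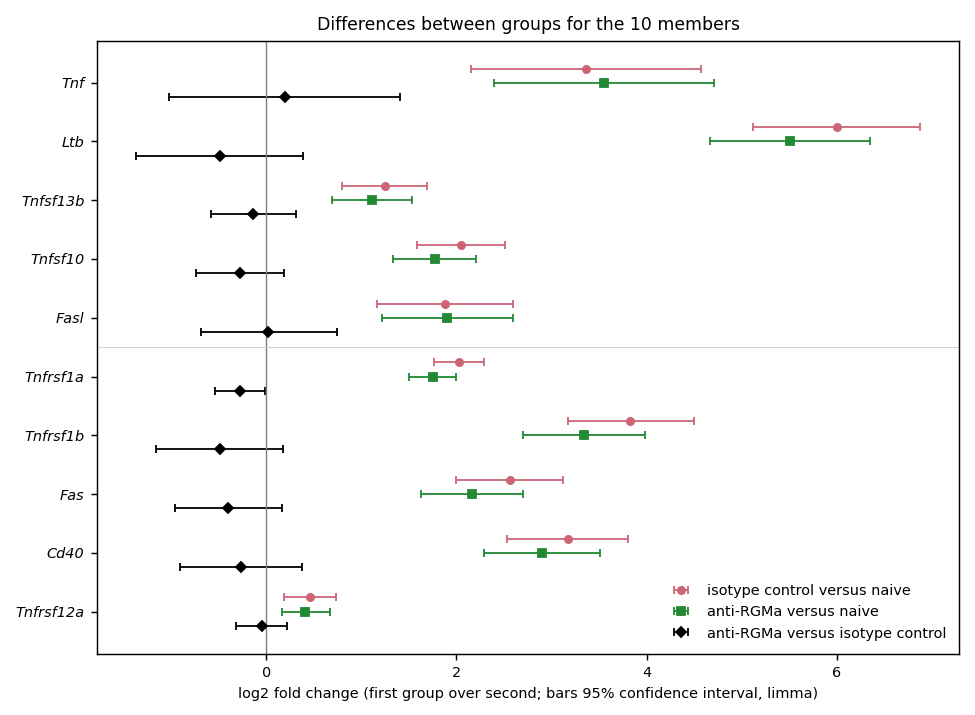
Log2 fold change of each member in the 3 comparisons, with bars for the 95% confidence interval from limma (ligands above the grey line, receptors below it). Both comparisons with naïve lie to the right of 0 for all 10 members, from 0.41 for Tnfrsf12a to 6.00 for Ltb, whereas anti-RGMa against isotype control lies between -0.49 and 0.20.

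The comparison of the antibodies asked whether anti-RGMa treatment changed the cord's RNA at 14 DPI. No member passed the study's threshold, 0 of 10 lower against 2.72% of all genes and 0 of 10 higher against 1.22%. At an adjusted p under 0.05 limma called 0 of 10 members, and 1 gene of 18194 (0.00550%). At an unadjusted p under 0.05 it found 1 member, Tnfrsf1a, among 2870 genes. The log2 difference of anti-RGMa from isotype control was below 0 for 8 of the 10 members and for 5 of 5 receptors, where 48.1% of all genes were below 0. The median of the members was -0.27, and that of all genes 0.01. The groups overlapped for every member. Marker lists of cell types differed in both directions. All 7 fibroblast markers had a log2 difference below 0 (median -1.36), and 6 passed the study's threshold. Their mean log2 signal was 9.43 to 11.07 in anti-RGMa and 10.75 to 13.14 in isotype control arrays. The highest values, 12.54 and 13.14, were those of isotype control replicates 3 and 4, which also had high muscle markers. All 8 endothelial markers were below 0 (median -0.44), 3 of them past the threshold, with a mean of 8.36 to 8.81 against 8.79 to 9.32. Of 13 macrophage and monocyte markers 11 were below 0 (median -0.27), and 3 passed. Of 10 skeletal muscle markers 9 were below 0 (median -2.09), and 3 passed. All 5 B cell markers (median -0.54) and 5 of 6 dendritic cell markers (median -0.21) were below 0. So were 5 of 8 T cell, 5 of 7 homeostatic microglia and 3 of 5 natural killer cell markers, with medians of -0.08, -0.05 and -0.04. The remaining lists went the other way. All 8 neuron markers were above 0 (median 0.47), as were 5 of 5 dorsal root ganglion markers (median 1.42). So were 6 of 7 astrocyte, 5 of 6 neutrophil and 5 of 6 oligodendrocyte markers. The mean of the ganglion markers was 9.59 and 8.22 in anti-RGMa replicates 1 and 6, and 6.11 to 6.62 in the other anti-RGMa arrays. In isotype control arrays it was 5.41 to 6.62. The part of these cells in the members' differences was not tested.

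Among the receptors, Tnfrsf1a was lower by 0.28 on average, a log2 fold change of -0.28 with a 95% confidence interval of -0.54 to -0.01 (unadjusted p = 0.0413, adjusted p = 0.307), and 5 of 6 anti-RGMa mice lay below the isotype control mean. Tnfrsf1b gave -0.49 (-1.16 to 0.18, adjusted p = 0.444), Fas -0.40 (-0.96 to 0.16, adjusted p = 0.459) and Cd40 -0.27 (-0.91 to 0.37, adjusted p = 0.682), each with 5 of 6 mice below the isotype control mean. Tnfrsf12a gave -0.05 (-0.32 to 0.22, adjusted p = 0.871). A fall larger than 1.5-fold therefore lies within the intervals of Tnfrsf1b, Fas and Cd40, and outside those of Tnfrsf1a and Tnfrsf12a.

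The call of Tnfrsf1b and the adjusted p of Tnfrsf1a changed without anti-RGMa replicate 6. That mouse was the highest of its group for Tnfrsf1a, Tnfrsf1b and Fas, and also for Ltb, Tnfsf13b and Fasl. Without it, Tnfrsf1a had a log2 fold change of -0.37 with an adjusted p of 0.0458, and Tnfrsf1b one of -0.74 with an unadjusted p of 0.0113 and an adjusted p of 0.0808, so that Tnfrsf1b passed the study's threshold. Over all genes, leaving out this array raised the number with an adjusted p under 0.05 from 1 to 1503. Tnfrsf1b also passed the study's threshold without isotype control replicate 3 (-0.69, unadjusted p = 0.0431) and without replicates 3, 4 and 5 together (-0.92, unadjusted p = 0.0335). Anti-RGMa replicate 6 had the highest macrophage and monocyte marker mean of its group, 11.87, where the other anti-RGMa arrays were at 10.71 to 11.15.

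Among the ligands, Ltb gave -0.49 (-1.37 to 0.39, adjusted p = 0.572), with 5 of 6 anti-RGMa mice below the isotype control mean. Tnfsf10 gave -0.28 (-0.74 to 0.19, adjusted p = 0.541) and Tnfsf13b -0.14 (-0.58 to 0.31, adjusted p = 0.771). Fasl gave 0.02 (-0.69 to 0.74, adjusted p = 0.978). Tnf gave 0.20 (-1.02 to 1.41, adjusted p = 0.892), with 3 of 6 mice on each side of the isotype control mean. Both signs rested on single mice, since without isotype control replicate 5 Tnf gave -0.26 and Tnfsf13b 0.10. For Tnf the interval allows more than a 2-fold change in either direction.

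Other probe sets of the same genes did not always move alike. In the fit over all 34958 probe sets, 17 of the members' 19 were called higher in isotype control than in naïve mice (21.4% of all probe sets), 1 was called lower (26.3%) and 1 was not called. In anti-RGMa the counts were again 17 higher (17.0%), 1 lower (20.9%) and 1 not called. The exceptions all belonged to Tnfsf13b. Its probe set 1445251_at read 7.53 to 7.75 in naïve mice, 7.17 to 7.47 in isotype control and 7.10 to 7.55 in anti-RGMa mice. It thus fell by 0.34 on the log2 scale in isotype control (adjusted p = 0.00676) and by 0.32 in anti-RGMa (adjusted p = 0.0110). The probe set 1458047_at was dim, with log2 signals from 0.39 to 5.10, and was not called in any comparison. When probe sets were averaged, Tnfsf13b differed from naïve by 0.43 in isotype control (adjusted p = 0.353) and by -0.20 in anti-RGMa. The rise of Tnfsf13b thus depended on its brightest probe set.

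Tnfsf10 was the ligand with the widest spread of rises over probe sets that agreed in sign. Its probe set 1439680_at was at 3.19 to 5.89 in naïve mice. The isotype control mice had 8.99, 8.52, 8.62, 8.42 and 9.20, and the anti-RGMa mice 7.38, 7.58, 7.58, 8.01, 7.65 and 8.72. Hence 5 of the 6 anti-RGMa mice lay below every isotype control mouse, and replicate 6 lay among them. The rise over naïve was 3.79 in isotype control and 2.87 in anti-RGMa. Between the antibodies this probe set had a log2 fold change of -0.93 (-1.73 to -0.12, unadjusted p = 0.0265, adjusted p = 0.331), and it was the 1 probe set of 19 past the study's threshold, which 2.55% of all probe sets passed on the lower side. It kept that call in 14 of 17 fits with an array left out. Without anti-RGMa replicate 1, isotype control replicate 1 or isotype control replicate 5 the unadjusted p was 0.0540, 0.0542 and 0.0649. The probe set 1420412_at gave 2.68, 2.39 and -0.29 in the 3 comparisons.

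Tnfrsf1b had a second probe set, 1448951_at, with a smaller rise of 0.84 in isotype control (adjusted p = 0.0223) and 0.78 in anti-RGMa (adjusted p = 0.0321). It differed by -0.06 between the antibodies, where the brighter one gave -0.49. For Fasl, Cd40 and Tnfrsf12a the other probe sets rose as the brightest did. The second of Fasl gave 2.58 and 2.73, those of Cd40 3.11 and 2.93 and 3.61 and 3.16, and that of Tnfrsf12a 0.54 and 0.50.

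**Figure D3:**
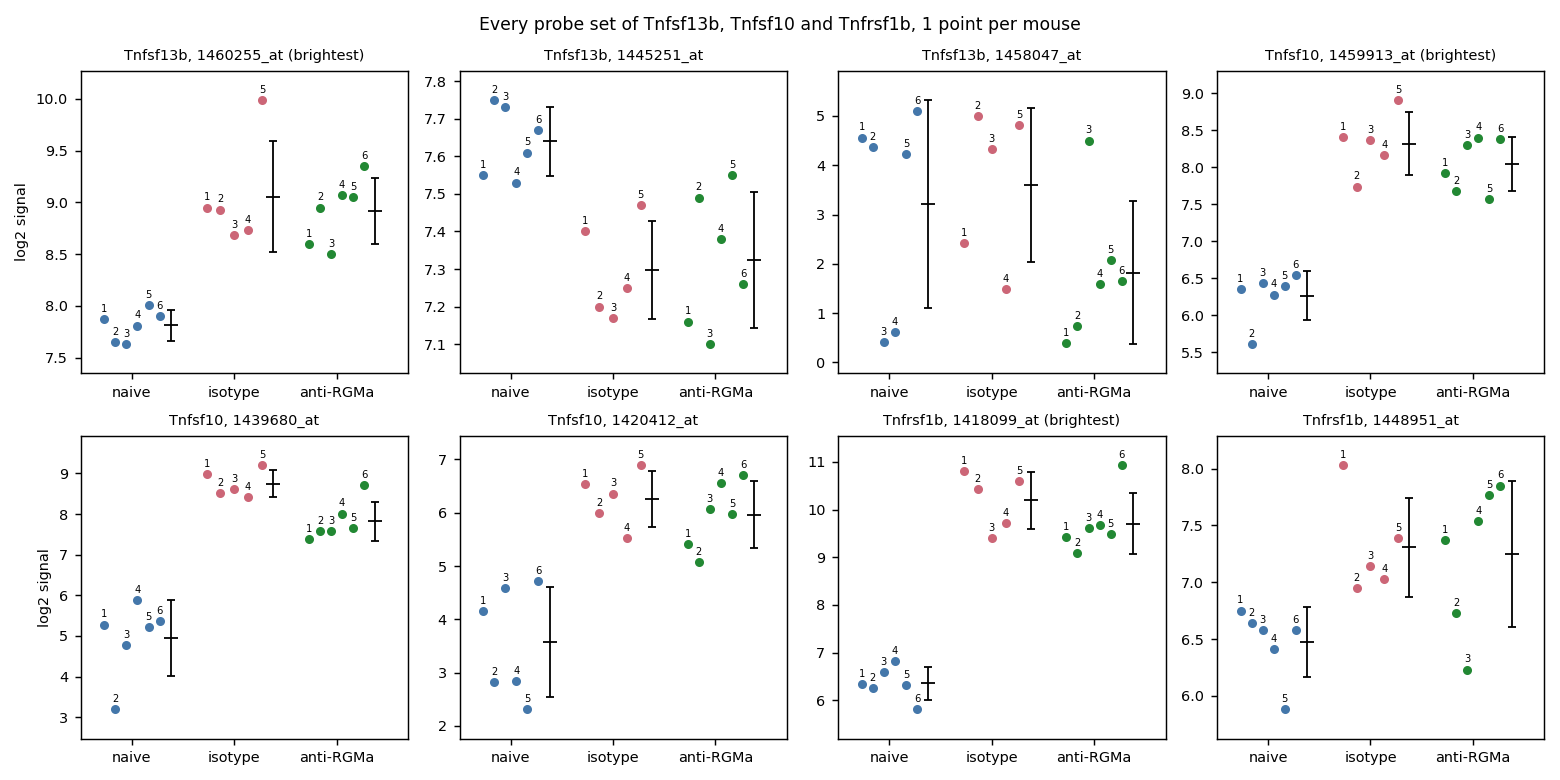
Log2 signal in each mouse for every probe set of Tnfsf13b, Tnfsf10 and Tnfrsf1b, with replicate numbers and the mean ± SD of each group (black bars). The probe set 1445251_at of Tnfsf13b is lower in EAE than in naïve mice, whereas the brightest probe set of the same gene is higher, and for 1439680_at of Tnfsf10 only replicate 6 of the anti-RGMa mice reaches the isotype control range.

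Among the 11 EAE mice the receptors for TNF followed the macrophage and monocyte marker mean. On that mean, isotype control replicates 1 and 5 and anti-RGMa replicate 6 stood apart from the other 8 arrays, at 11.83 to 12.01 against 10.71 to 11.28. These 3 arrays were also the highest 3 for Tnfrsf1a (11.37 or more, against at most 11.15), Tnfrsf1b (10.60 against 10.43) and Ltb (10.81 against 10.68). Because the arrays fell into these clusters, the relation was computed within the 8. There Tnfrsf1a had r = 0.96 (exact permutation p = 0.00119, adjusted over the 10 members 0.0119) and rho = 0.86 (exact p = 0.0107, adjusted 0.0769), with r = 0.88 without the 2 arrays farthest from the median. For Tnfrsf1b, r was 0.87 (exact permutation p = 0.00278, adjusted 0.0139) and rho 0.83 (exact p = 0.0154, adjusted 0.0769), with r = 0.61 without the 2 farthest arrays. Ltb had r = 0.73 (exact permutation p = 0.0391, adjusted 0.13), which fell to 0.30 without those 2. The remaining 7 members had r between -0.00 and 0.61. Of the 8 arrays, chosen by a gap in these data, 5 were of the anti-RGMa group, with marker means of 10.71 to 11.15 and Tnfrsf1a at 10.68 to 10.99. The others were isotype control arrays, at 11.04 to 11.28 and 11.01 to 11.15. Groups were pooled in the permutation, so the difference between the antibodies enters r and its p. Over all 11 arrays, after group means were subtracted, r was 0.98 for Tnfrsf1a and 0.94 for Tnfrsf1b.

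**Figure D4:**
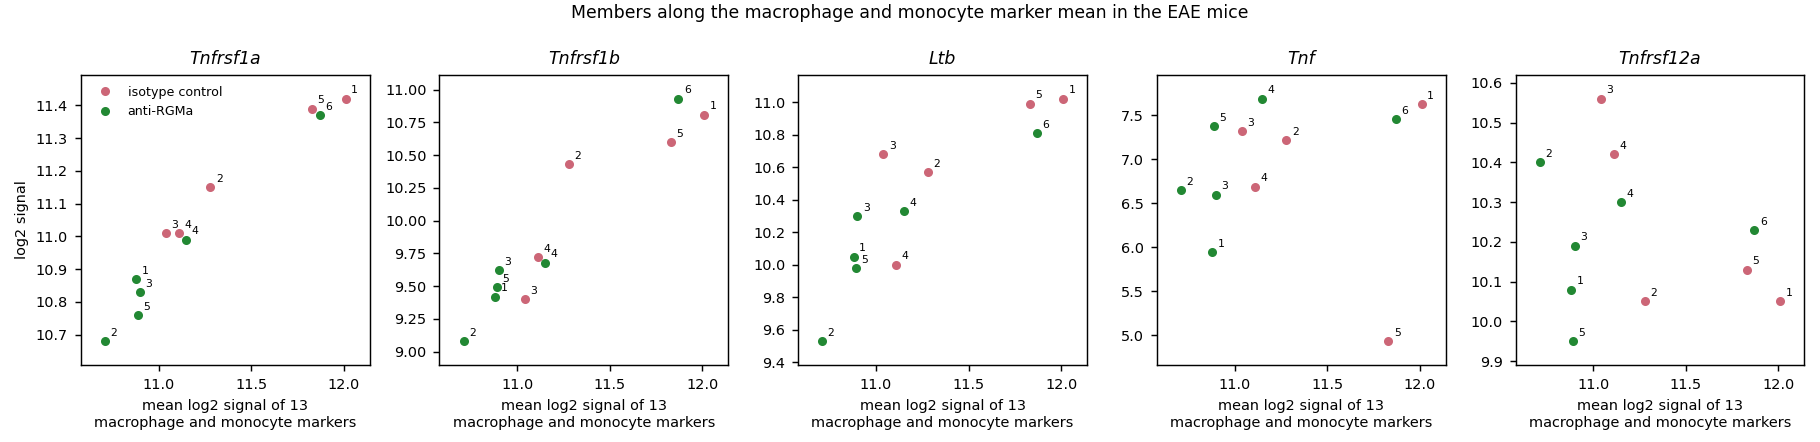
Log2 signal of 5 members against the log2 signal averaged over 13 macrophage and monocyte markers in the EAE mice (5 isotype control, 6 anti-RGMa, numbered by replicate). Tnfrsf1a and Tnfrsf1b lie along a line in both groups, Ltb less closely, and Tnf and Tnfrsf12a do not.

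On the T cell marker mean the same 3 arrays were the highest, at 8.36 to 8.49 against 7.39 to 8.03. The relation was therefore again computed within the other 8, with the groups pooled. There 0 of the 10 members had an adjusted p under 0.05. Tnf had r = 0.87 (exact permutation p = 0.00699, adjusted over the 10 members 0.0699) and rho = 0.71 (exact p = 0.0576, adjusted 0.144), with r = 0.80 without the 2 arrays farthest from the median. This rested on the choice of arrays, since isotype control replicate 5, the lowest for Tnf (4.93), was among the 3 left out. Over all 11 arrays Tnf had r = 0.16 (permutation p = 0.662) and rho = 0.52, with r = -0.22 without the 2 farthest arrays. Within the 8, Cd40 had r = 0.77 (exact permutation p = 0.0186, adjusted 0.093) and rho = 0.81 (exact p = 0.0218, adjusted 0.144), with r = 0.80 without the 2 farthest arrays. The remaining 8 members had r between -0.14 and 0.64, among them Tnfrsf1a with 0.52 (exact permutation p = 0.18) and Tnfrsf1b with 0.47 (exact permutation p = 0.238). Over all 11 arrays, 6 of the 10 members had an adjusted permutation p under 0.05 for r with the T cell mean (adjusted over 40 relations with 4 marker lists). Tnfrsf1a had r = 0.89 and Tnfrsf1b 0.87, and after group means were subtracted 0.92 and 0.87. For the macrophage and monocyte mean the count was 3. The same 3 arrays were highest on both means, so the pooled values cannot separate the 2 lists. For the B cell mean the count was 0, and r ran from -0.13 to 0.65, while Cd40 had rho = 0.77 (adjusted permutation p = 0.0332). For skeletal muscle no pooled value is given, because isotype control replicates 3, 4 and 5 stood apart.

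The genes whose pattern over the 11 EAE arrays was most like that of each member, of the 9909 genes whose log2 signal averaged 8 or more, differed between members. For Tnf the closest was Camp (r = 0.91), an antimicrobial peptide of neutrophil granules, followed by Afg3l2 and Rundc1 (both 0.84). The mean of 6 neutrophil markers was 4.78 to 7.51 in naïve, 9.11 to 11.29 in isotype control and 9.35 to 10.96 in anti-RGMa arrays, and its part in the Tnf values was not tested. For Tnfrsf1a they were Bach1, Mdfic and Eif4ebp1 (each 0.98), and for Tnfrsf1b Gpsm3, Galnt1 and Clec4d (each 0.98), the last a lectin receptor of myeloid cells. Ltb was nearest to Tmem123 (0.95), Fas to Usp25 and Procr (both 0.93) and Tnfsf13b to Nubpl (0.95). The closest to Cd40 was Ubd (0.93), an interferon- and TNF-inducible ubiquitin-like protein, followed by Zup1 (0.91) and Emg1 (0.90). The closest to Fasl was Gbp6 (0.89), an interferon-inducible guanylate-binding protein, followed by Trim12a and Tor3a (both 0.88). For Tnfsf10 it was Acsl5 (0.88), and for Tnfrsf12a, with the weakest likeness, Fam120c and Rab23 (both 0.79). These genes were picked for their r, which is given as a description.

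Other TNF superfamily genes rose less uniformly. Of 9 other ligands measured, 5 were called higher in isotype control (24.6% of all genes) and 6 in anti-RGMa (20.3%), and 0 lower (27.2% and 21.6%). Their median log2 fold changes were 0.77 and 0.97, and 0.50 and 0.65 with 32 added. Tnfsf11, which encodes RANKL, gave 5.71 (adjusted p = 2.07e-05) and 5.31 (adjusted p = 4.39e-05). These folds depended on very dim naïve signals, with a mean log2 signal of 1.85. Lta, the partner of Ltb, gave 2.75 and 2.22, also from a dim naïve mean of 3.30. Tnfsf9, the ligand of 4-1BB, gave 1.96 and 1.55, from a naïve mean of 5.12. The others called were Tnfsf14 (3.22 and 2.67), Tnfsf8 (0.77 and 0.97) and, in anti-RGMa, Tnfsf4 (0.88, against 0.76 in isotype control). Cd40lg, the ligand of Cd40, had 0.44 (-0.90 to 1.78) and 0.56 (-0.71 to 1.84) and was not called in either group. Of the 9, 0 passed the study's threshold between the antibodies, against 2.72% of all genes lower and 1.22% higher, with a median of -0.41.

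Of 22 other receptors, 12 were called higher in isotype control (24.6% of all genes) and 12 in anti-RGMa (20.3%), and 0 lower (27.2% and 21.6%). Their medians were 0.94 and 0.79, and 0.52 and 0.44 with 32 added. Tnfrsf18, which encodes GITR, a receptor of T cells, rose by 5.60 and 5.19 (adjusted p = 1.83e-08 and 2.95e-08). Its naïve signals were dim, with a mean log2 signal of 3.19, and the folds depended on them. Tnfrsf9, which encodes 4-1BB, rose by 3.91 and 3.18, and Tnfrsf13b, which encodes the BAFF receptor TACI, by 2.60 and 2.40. Between the antibodies 3 of 22 passed the study's threshold, all lower in anti-RGMa, where 2.72% of all genes were lower. At an adjusted p under 0.05 limma called 0. Tnfrsf11b, which encodes osteoprotegerin, a soluble decoy receptor of RANKL, had a log2 fold change of -0.89 (-1.51 to -0.27, unadjusted p = 0.00785, adjusted p = 0.223). Tnfrsf9 had -0.73 (unadjusted p = 0.0379, adjusted p = 0.301). Eda2r, a receptor of ectodysplasin, had -1.21 (unadjusted p = 0.0440, adjusted p = 0.310). The count of 3 fell to 1 without isotype control replicates 3, 4 and 5, where 308 of 18194 genes were lower. With the replicate block it was also 1, where 596 of all genes were lower.

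**Figure D5:**
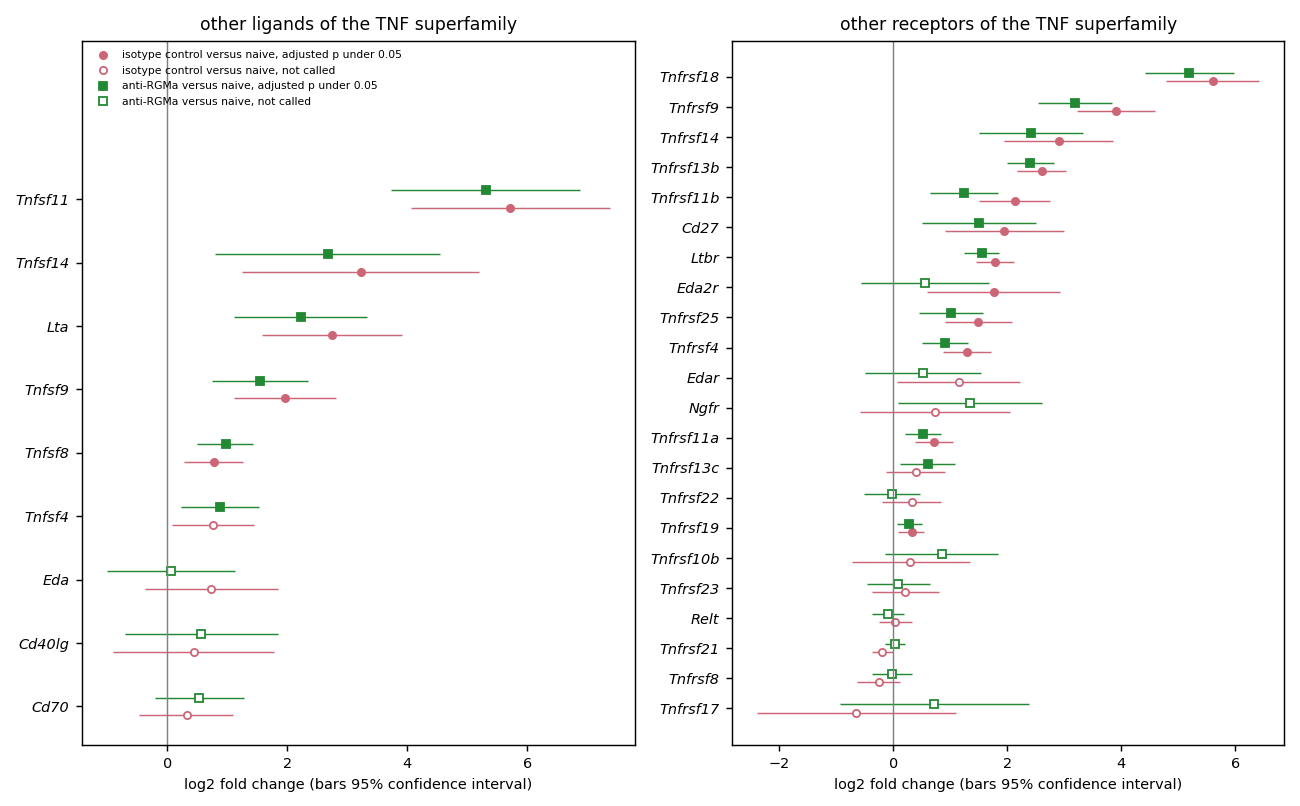
Log2 fold change against naïve cord of 9 other ligands and 22 other receptors of the TNF superfamily, ordered by the isotype control value, with bars for the 95% confidence interval. Filled symbols passed an adjusted p under 0.05 and open symbols did not. Tnfsf11 and Tnfrsf18 lead their panels in both EAE groups, from dim naïve signals (mean log2 1.85 and 3.19). Most genes in the lower part of each panel have intervals that include 0.

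Signalling genes downstream of the receptors rose as well. All 13 measured genes of the NF-κB subunits and feedback list were called higher in isotype control (24.6% of all genes) and 11 in anti-RGMa (20.3%), with medians of 2.57 and 2.27. Tnfaip2, a TNF-inducible gene, rose by 5.39 and 4.74, Birc3, an inhibitor of apoptosis protein that also restrains NF-κB-inducing kinase, by 3.62 and 3.25, and Nfkbie, an inhibitor of NF-κB, by 3.38 and 2.95. Nfkb2 and Sod2 were called in isotype control (0.94 and 0.53) and not in anti-RGMa (0.38 and 0.29), while between the antibodies they gave -0.56 and -0.24, neither past the study's threshold. Between the antibodies the values of all 13 were below 0, as were those of 48.1% of all genes, with a median of -0.31. Of them 1, Nfkbiz, an atypical IκB protein, passed the study's threshold, as 2.72% of all genes did on the lower side. It gave -0.73 (-1.20 to -0.26, unadjusted p = 0.00471, adjusted p = 0.223). The count was 3 of 13 without anti-RGMa replicate 6 (Nfkbiz, Nfkb2 and Tnfaip2), where 685 of 18194 genes passed on the lower side. It was also 3 with 32 added (411 of all genes) and with array weights (524). It was 2 with the replicate block (596) and without isotype control replicates 3, 4 and 5 (308). When probe sets were averaged it was 0 of 13 (454 of all genes).

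Among 19 receptor adaptors and kinases, 15 were called higher and 1 lower in isotype control (24.6% and 27.2% of all genes). In anti-RGMa 13 were called higher and 1 lower (20.3% and 21.6%), and the medians were 0.71 and 0.51. The gene called lower was the kinase Map3k7 (-0.16 and -0.19). The death-pathway protease Casp8 rose by 2.66 and 2.48, its inhibitor Cflar by 1.95 and 1.54, and the adaptor Traf1 by 2.90 and 2.34. Tank, a TRAF-binding protein, was the 1 of 19 past the study's threshold between the antibodies, where 2.72% of all genes were lower. It gave -0.59 (unadjusted p = 0.00496, adjusted p = 0.223), and its fold of 1.51 lay at the threshold. The count was 0 with 32 added, with median centring and with averaged probe sets (411, 443 and 454 of 18194 genes lower). With the replicate block it was 2 (596 of all genes lower). The 6 genes of ligand shedding were all called higher in isotype control (24.6% of all genes), and 5 of them in anti-RGMa (20.3%). Adam17, the protease that releases TNF-α, rose by 1.87 and 1.73, Adam10 by 1.13 and 0.75, and Rhbdf1, which helps Adam17 mature, by 0.99 and 0.68. Rhbdf2 rose most of the 6, by 3.98 and 2.79. Between the antibodies Rhbdf2 gave -1.19 (-2.48 to 0.11, limma unadjusted p = 0.0697, adjusted p = 0.353). None of the 6 passed the study's threshold between the antibodies, which 2.72% of all genes passed on the lower side. At an adjusted p under 0.05 limma called 0. At an unadjusted p under 0.05 it found 4 (Rhbdf1, Adam10, Furin and Timp3), and 2870 of all 18194 genes. All 6 values were below 0, as were those of 48.1% of all genes, with a median of -0.35.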

How the data were processed

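The authors computed the deposited signal intensity of each probe set with the MAS5 algorithm and global scaling, on a linear scale and with no pooling of mice. The submitters' notes also name affy, with no version given in the sources used here. After 2% was trimmed at each end, every array had the same mean, and signals ran from 0.0118 to 44408. Array medians were 132 to 145 in naïve, 137 to 165 in isotype control and 136 to 157 in anti-RGMa mice. No detection calls were used, and the number of arrays limits the precision. P-values measure the spread between these mice.

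Of 45101 probe sets, 34958 with a single gene were used, and 932 with several genes and 9211 without a name were left out. The brightest stood for each gene. Log2 signals, with no offset or filter, were fitted with limma 3.58.1 in R 4.3.3, with no block, and p-values adjusted by Benjamini-Hochberg. The fit was tested on simulated data. Correlations used Python 3.11.15 and scipy 1.17.1, figures matplotlib 3.10.9. Members, gene lists and tests were chosen with earlier results of these data known. Named genes were all members, the 3 genes of each of 5 pathway lists with the smallest p in isotype control against naïve, and those past the study's threshold between the antibodies. Cd40lg, Tnfsf14, Tnfsf8, Tnfsf4, Nfkb2, Sod2, Map3k7, Rhbdf2, Furin and Timp3 were named after their values were seen. Alternatives covered offset, scaling, filter, probe set, variance model, arrays in the fit, covariate and block.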

Additional observations from a re-analysis of the deposited data

Results flagged for a closer look

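In 57 tests for a mouse standing apart within its group, 4 were positive, and chance flags about 1 in 20. For Tnfsf13b, isotype control replicate 5 had a log2 signal of 9.99, where the other 4 mice were at 8.68 to 8.95. For Fas the same mouse had 9.29, where the others were at 8.42 to 8.65. For Tnfrsf1b, anti-RGMa replicate 6 had 10.93, where the other 5 mice were at 9.08 to 9.68. For Tnfsf10, naïve replicate 2 had 5.61, where the others were at 6.28 to 6.54. Isotype control replicate 5 and anti-RGMa replicate 6 were also 2 of the 3 arrays with the highest macrophage and monocyte marker mean (11.83 and 11.87), and the part of this in their member values was not tested.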

How the results depend on the processing

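In both comparisons with naïve the count of members called stayed at 10 in every leave-one-out fit. With only genes at or above the median gene, 5 of the 5 members left were called in each. With averaged probe sets 9 were called in each, and Tnfsf13b was lost (adjusted p = 0.353 in isotype control and 0.697 in anti-RGMa). In isotype control 9 were called without replicates 3, 4 and 5, and 9 with the muscle covariate, and Tnfrsf12a was lost in both. The other settings called 10 in each. Between the antibodies the count was 0 and became 1 (Tnfrsf1b) with array weights and without isotype control replicates 3, 4 and 5, and 0 to 1 with each array left out. Of single members, Tnfsf13b in anti-RGMa against naïve reversed to -0.20 with averaged probe sets. Between the antibodies, Fasl reversed to -0.09 with array weights, -0.00 without isotype control replicates 3, 4 and 5 and -0.02 with a muscle covariate, and ranged from -0.17 to 0.19 with each array left out. Tnf became -0.47 and Tnfrsf12a 0.14 without those 3 replicates, and Tnfrsf12a 0.07 with the covariate. With each array left out Tnf ranged from -0.26 to 0.41, Tnfsf13b from -0.23 to 0.10 and Tnfrsf12a from -0.10 to 0.03. The cause was not tested. A replicate block called 10, 10 and 0 members, as without it. Same-numbered mice of different groups showed no clear shared deviation (16 pairs, r from -0.06 to 0.07). In 4 of the 16 pairs the best match was the same-numbered mouse. Such a check cannot show that the numbers carry no pairing.

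Over all genes, the 494 lower and 222 higher genes between the antibodies became 411 and 81 with 32 added, 443 and 270 with median centring, 466 and 265 with quantile normalization, 454 and 245 with averaged probe sets, 391 and 322 with the muscle covariate, 596 and 348 with the block, 308 and 517 without isotype control replicates 3, 4 and 5, and 158 and 59 among genes at or above the median. Leave-one-out counts ran from 349 to 685 lower and 180 to 537 higher. Against naïve, median centring moved the split from 4481 higher and 4945 lower to 3561 and 6100 in isotype control, and from 3696 and 3925 to 2924 and 5090 in anti-RGMa. It moved the median of all genes from -0.04 to -0.18 and from -0.03 to -0.14.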
